A study of Homo sapiens with 12 samples.

Results

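The homeobox genes of the 4 HOX clusters were followed in TC-71 cells, an established human line from an Ewing sarcoma. Members were the entries whose gene symbol, or any one of several joined symbols, was HOXA, HOXB, HOXC or HOXD with a number. This gave 35 of the 78885 entries of the deposited table, and together they named all 39 HOX genes. Of these entries 32 held 1 gene and 3 joined several, namely HOXA3 with HOXA5, HOXA9 with HOXA10 and their readthrough transcript, and HOXC4 with HOXC5 and HOXC6. RNA sequencing had been done on 12 libraries in 4 groups of 3 biological replicates: cells given YK-4-279 for 16 h at 2 mM, as the labels write the dose, cells given DMSO for 16 h, cells transfected against DHX9 (siDHX9) and cells transfected with a scrambled control, both collected at 48 h. YK-4-279 is a small molecule known to bind the EWS-FLI1 fusion protein of Ewing sarcoma and to disturb its contact with the RNA helicase DHX9. The labels give WT as the genotype of YK-4-279 and DMSO cells, DHX9 knockdown as that of siDHX9 cells and scrambled knockdown as that of scrambled cells, and the protocols describe lipid transfection of siRNAs where the series' design text names shRNAs. All groups come from 1 line, and errors here describe separate cultures of it.

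HOX genes encode transcription factors with a homeodomain, and they lie in 4 clusters on 4 chromosomes, numbered by paralog group along each cluster. In the embryo the low-numbered genes are used in anterior and the high-numbered, posterior genes in caudal and distal regions, and in mature tissue the pattern is held by Polycomb repressors and Trithorax activators. HOX proteins bind DNA with PBX and MEIS cofactors, and high levels of posterior HOXD genes are a known feature of Ewing sarcoma.

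Total reads per library, recovered from the deposited values, were 48323990 to 53659652 with YK-4-279, 38568983 to 65547726 with DMSO, 46888217 to 49350237 with siDHX9 and 47769636 to 51041169 with scrambled. All 6 Ewing sarcoma markers had a mean above 10 normalised counts, among them NR0B1 at 7161 and CD99 at 28091, while CD3E was at 0 in every library. DHX9, in an entry joined with NPL, averaged 20608 ± 1098 normalised counts after knockdown and 32689 ± 2132 with the scrambled control (SD, n = 3 each), with a log2 change of −0.66 ± 0.07 (SE; limma, adjusted p = 4.54e-05). The share of reads in ribosomal RNA entries was 8.85% ± 1.07 with YK-4-279 and 5.24% ± 0.246 with DMSO, and 2.76% ± 0.918 with siDHX9 and 4.14% ± 0.960 with scrambled (SD, n = 3 each). The summed level of 4 leukocyte markers was 271.3 to 389.1 with YK-4-279 and 132.1 to 233.7 with DMSO, and 122.6 to 271.3 with siDHX9 and 86.9 to 101.9 with scrambled; CD79A made up most of it, and CD3E was at 0. The summed level of 4 fibroblast markers was 2229 to 2652 with siDHX9 and 1615 to 1874 with scrambled. Over the 12 libraries COL1A1 averaged 1494, DCN 334.6, LUM 61.2 and COL1A2 1.20. The summed level of 4 epithelial markers was 343.7 to 422.3 with YK-4-279 and 241.3 to 295.3 with DMSO, and 334.2 to 392.3 with siDHX9 and 383.2 to 400.4 with scrambled. Their means were 269.6 for KRT18, 67.1 for KRT8, 10.2 for EPCAM and 1.44 for CDH1. The 3 endothelial markers summed to at most 12.8 in any library. The part of ribosomal RNA and of these markers in the HOX changes below was not tested, and in bulk RNA fewer expressing cells and less RNA per cell cannot be told apart.

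TC-71 cells expressed HOX genes of all 4 clusters, and the HOXD cluster held the most. Summed over entries and averaged over the 12 libraries, the level was 22085 normalised counts for HOXD, 10580 for HOXB, 4825 for HOXC and 984 for HOXA. Per kilobase of exon, HOXD made up 61.3% of the HOX signal, HOXB 27.8%, HOXC 9.53% and HOXA 1.35%. Altogether the HOX entries summed to 40268 ± 844 normalised counts with YK-4-279, 38812 ± 751 with DMSO, 38537 ± 1744 with siDHX9 and 36278 ± 1807 with scrambled (SD, n = 3 each). Of the 35 entries 22 had a mean of at least 100 normalised counts, and 10 had at least 1000, of which 5 were in HOXD, 3 in HOXB and 2 in HOXC.

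**Figure D1:**
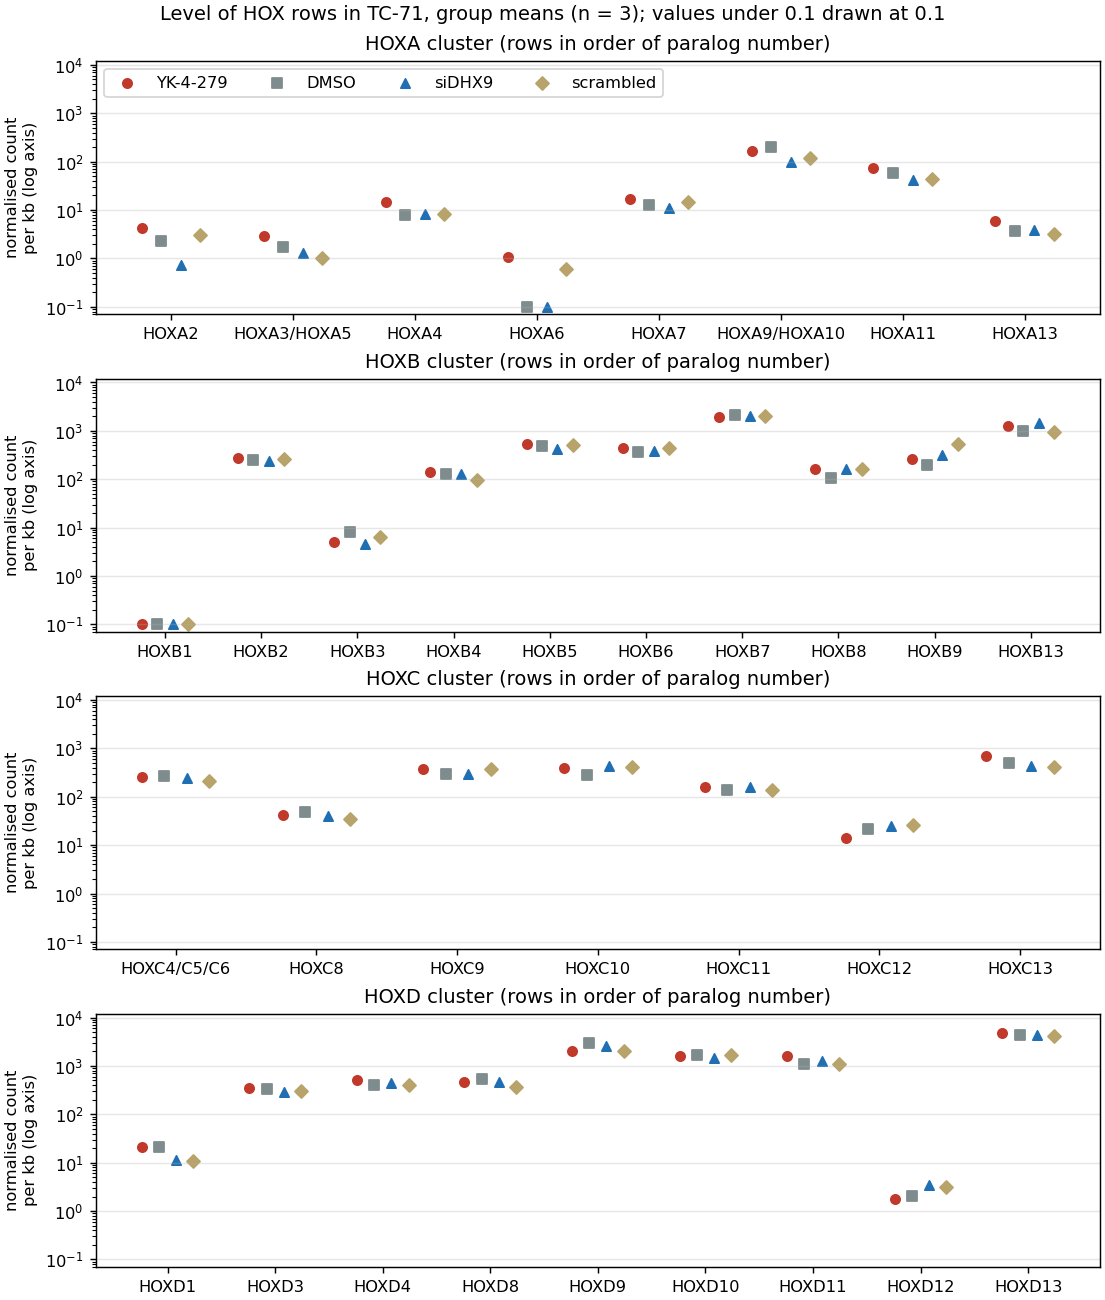
Group mean level of HOX entries, in normalised counts per kilobase of exon on a log axis, with 1 panel per cluster and 1 symbol per group (n = 3 libraries each). HOXD13 is highest in all 4 groups, HOXD12 lies far below both of its neighbours, and most HOXA entries lie below the other clusters.

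The HOXD cluster lies on chromosome 2 (hg19), where the entries run between 176957532 (HOXD13) and 177055635 (HOXD1). HOXD13, which patterns digits and the urogenital tract, was the highest HOX gene per kilobase of exon, at 4357 normalised counts per kb over the 12 libraries. That placed it 711th of 12140 single-gene entries with a protein-coding length, above 94.1% of them, and first among HOX entries in every group. HOXD9 followed at 2404 normalised counts per kb and HOXD10 at 1620, 2 genes of hindlimb and lumbosacral patterning, and HOXD11, a gene of forearm and kidney development, had 1255. HOXD12, which lies between HOXD13 and HOXD11 in the same posterior block, had only 2.61 normalised counts per kb and 42 reads in all 12 libraries. HOXD8 with 461 normalised counts per kb, HOXD4 with 442 and HOXD3 with 316 formed a middle group, and HOXD1, at the anterior end, had 16.0. The level did not follow position in the cluster step by step, since HOXD12 sat between the highest and the fifth highest HOX gene per kilobase.

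The promoters of these 3 neighbours are shown because they differ so far in level. Each run covers 250 bases before and 50 after the RefSeq start on the plus strand of GRCh38.p14, and capitals mark CACGTG, the E-box hexamer that is its own reverse complement.
HOXD13: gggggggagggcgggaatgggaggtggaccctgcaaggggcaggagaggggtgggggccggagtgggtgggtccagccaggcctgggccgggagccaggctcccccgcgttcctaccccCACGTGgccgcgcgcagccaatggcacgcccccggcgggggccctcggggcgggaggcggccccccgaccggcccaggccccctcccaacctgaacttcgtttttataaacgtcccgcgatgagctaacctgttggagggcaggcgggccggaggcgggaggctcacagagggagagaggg
HOXD12: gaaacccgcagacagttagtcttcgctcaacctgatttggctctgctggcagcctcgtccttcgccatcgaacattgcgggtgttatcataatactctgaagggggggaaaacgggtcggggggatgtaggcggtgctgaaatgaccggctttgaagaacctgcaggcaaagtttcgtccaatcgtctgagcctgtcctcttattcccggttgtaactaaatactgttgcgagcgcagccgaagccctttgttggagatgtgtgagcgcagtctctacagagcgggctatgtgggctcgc
HOXD11: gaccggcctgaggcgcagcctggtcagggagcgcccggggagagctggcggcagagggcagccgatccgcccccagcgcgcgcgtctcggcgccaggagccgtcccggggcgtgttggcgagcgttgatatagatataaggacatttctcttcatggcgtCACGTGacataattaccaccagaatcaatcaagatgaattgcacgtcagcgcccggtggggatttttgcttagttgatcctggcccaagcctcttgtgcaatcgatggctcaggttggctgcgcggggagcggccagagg
They lie at chr2:176092471-176092770 for HOXD13, chr2:176099545-176099844 for HOXD12 and chr2:176107030-176107329 for HOXD11. The HOXD13 promoter held CACGTG and the TATA letters TATAAA and had a GC content of 74.0%. The HOXD11 promoter held CACGTG without TATAAA, at 62.3% GC, and the HOXD12 promoter held neither of them, at 54.3% GC. CpG dinucleotides numbered 24 in HOXD13, 19 in HOXD12 and 27 in HOXD11, against a median of 14 over all promoters of the table. Across both strands, the table held 27 promoters of 20 HOX genes; CACGTG was present in 9 of the 27, with HOXD1, HOXD3 and HOXD10 also among them, and in 7.26% of all 35116 promoters of that length. TATAAA was present in 5 of the 27 HOX promoters and in 11.53% of all promoters, and GGAAGGAA, a pair of the repeat unit that EWS-FLI1 is known to bind, in 1 of the 27 and in 3.67%. These matches describe letters in a short window and do not mark binding sites.

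HOXB, on chromosome 17, was the second cluster. HOXB7, a gene of trunk patterning, had 2026 normalised counts per kb and HOXB13, the most posterior gene of the cluster and a factor of prostate and tail development, had 1146. HOXB5 with 492 normalised counts per kb, HOXB6 with 411, HOXB9 with 330 and HOXB2 with 257 followed. HOXB8 had 148 normalised counts per kb, HOXB4 had 122 and HOXB3 had 5.95. HOXB1, the hindbrain gene at the anterior end, had 0 reads in all 12 libraries, which allows up to 3 reads among 601006835.

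HOXC, on chromosome 12, was led by HOXC13, a gene of hair and nail differentiation, at 510 normalised counts per kb. HOXC10 had 383 normalised counts per kb, HOXC9 had 340, the entry that joins HOXC4, HOXC5 and HOXC6 had 246, and HOXC11 had 149. HOXC8 had 41.0 normalised counts per kb and HOXC12 had 21.9. As in HOXD, the paralog 12 gene lay below both of its neighbours. In HOXA, on chromosome 7, only the entry joining HOXA9 with HOXA10, at 147 normalised counts per kb, and HOXA11, at 54.2, had a mean of at least 100 normalised counts. HOXA4, HOXA7 and HOXA13 lay between 4.19 and 13.8 normalised counts per kb. HOXA2, HOXA6 and the entry joining HOXA3 with HOXA5 had means under 10 normalised counts, as did HOXB1 and HOXD12, and these 5 entries were not tested. The joined HOXA9 and HOXA10 entry spans the loci of HOXA11, HOXA13 and HOXA11-AS, so reads of those genes may be shared with it.

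The first comparison asked what YK-4-279 does to these genes. Of the 30 tested HOX entries, 5 rose and 1 fell at an adjusted p under 0.05, while 13.8% of all 14225 tested entries were called, 7.33% higher and 6.49% lower. The genes that rose were HOXD11, HOXC10, HOXB8, HOXB13 and HOXC13, by 1.26-fold to 1.55-fold, and the gene that fell was HOXD9, by 1.47-fold. The calls came from 3 clusters, with 2 each in HOXB, HOXC and HOXD and 0 in HOXA. Of the 14 entries of paralog groups 9 to 13, 5 were called, against 1 of the 16 entries of groups 1 to 8; the difference between these shares was not tested. The median log2 change was 0.17 over the 30 HOX entries and 0.02 over all tested entries. The 3 YK-4-279 and 3 DMSO libraries did not overlap for 20 of the 30 HOX entries, against 43.5% of all tested entries.

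HOXD9 had 3661, 4022 and 3623 normalised counts with YK-4-279, against 5187, 5810 and 5676 with DMSO. Each YK-4-279 library lay below every DMSO library, and the log2 change was −0.56 ± 0.07 (SE; limma, adjusted p = 0.000315). HOXD11 had 2277, 2589 and 2355 normalised counts with YK-4-279, against 1676, 1757 and 1640 with DMSO. The groups did not overlap, and the log2 change was 0.51 ± 0.11 (SE; limma, adjusted p = 0.0094). HOXD9 and HOXD11, near neighbours in 1 cluster, thus changed in opposite directions, while HOXD10 between them had 3219 ± 122 normalised counts with YK-4-279 and 3415 ± 104 with DMSO (SD, n = 3 each; log2 −0.09 ± 0.07 SE; limma, adjusted p = 0.423). The HOXD9 entry overlaps an unnamed entry with a mean of 12.9 normalised counts.

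HOXC10, which patterns lumbar segments and hindlimb motor neurons, had 697.2, 818.4 and 796.9 normalised counts with YK-4-279, against 536.4, 531.3 and 566.3 with DMSO (log2 0.50 ± 0.11 SE; limma, adjusted p = 0.0109). HOXC13 had 1585, 1800 and 1679 normalised counts with YK-4-279, against 1104, 1328 and 1217 with DMSO (log2 0.47 ± 0.13 SE; limma, adjusted p = 0.0244). Neither gene overlapped between the groups. Both entries lie over antisense entries, HOXC-AS3 and the joined HOXC-AS2 with HOXC-AS1 in the case of HOXC10 and HOXC13-AS in that of HOXC13. No source used here states a strand setting for the counting, so sense and antisense reads may be mixed.

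HOXB8, known in mouse for roles in blood cells and spinal cord, had 278.9, 301.6 and 309.3 normalised counts with YK-4-279, against 211.9, 158.9 and 208.0 with DMSO (log2 0.63 ± 0.15 SE; limma, adjusted p = 0.0142). HOXB13 had 4234, 4410 and 4174 normalised counts with YK-4-279, against 3311, 3417 and 3418 with DMSO (log2 0.34 ± 0.09 SE; limma, adjusted p = 0.0206). The drug libraries were the higher ones throughout for both genes. HOXB8 shares its span with an unnamed entry of mean 60.2 normalised counts. HOXD9 remained called whichever library was left out, and the other 5 did not. HOXB13 lost its call without any single YK-4-279 or DMSO library (limma, adjusted p = 0.0526 to 0.0862), HOXC13 without YK-4-279 replicate 2 (0.103) or 3 (0.0694) or DMSO replicate 1 (0.109) or 3 (0.0662), HOXB8 without YK-4-279 replicate 2 (0.056) or 3 (0.0542) or DMSO replicate 2 (0.0716), and HOXC10 (0.058) and HOXD11 (0.0531) without YK-4-279 replicate 2. The count of called HOX entries was 1 without YK-4-279 replicate 2 and 3 without YK-4-279 replicate 3. Over all tested entries these fits called 376 higher and 482 lower, and 559 and 556, against 1042 and 923 in the main fit.

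**Figure D2:**
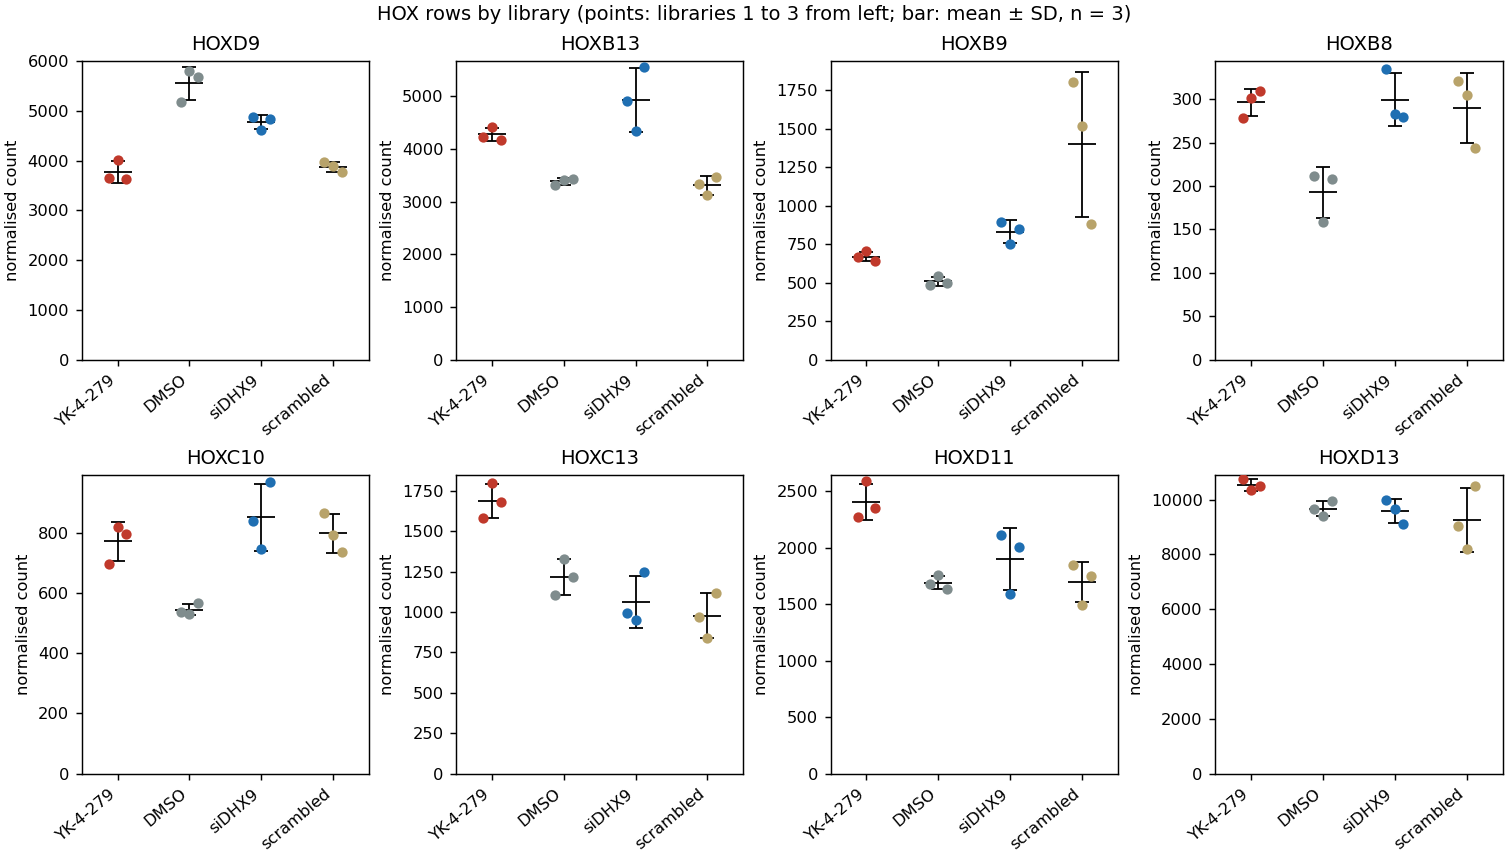
Normalised counts of 8 HOX genes in each of the 12 libraries (points, libraries 1 to 3 from left), with the mean and SD of each group (bars, n = 3). With YK-4-279, HOXD9 lies below all DMSO libraries and HOXB13, HOXB8, HOXC10, HOXC13 and HOXD11 lie above them; with siDHX9, HOXB13 and HOXD9 lie above all scrambled libraries, and scrambled replicates 1 and 2 stand out for HOXB9.

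HOXD13, the highest HOX gene, had 10759, 10336 and 10507 normalised counts with YK-4-279, against 9650, 9398 and 9959 with DMSO. All drug libraries were higher, yet the log2 change was 0.12 ± 0.08 (SE; limma, adjusted p = 0.345), with a 95% interval from −0.05 to 0.30. HOXB7 had 2583, 2698 and 2550 normalised counts with YK-4-279, against 2814, 3084 and 2889 with DMSO (log2 −0.17 ± 0.10 SE; limma, adjusted p = 0.268). The drug libraries were again all on one side, here the lower, without reaching the threshold. The 24 entries that were not called had log2 changes between −0.66 (HOXB3) and 0.77 (HOXA13). HOXC9 came closest, with 593.1 ± 52.1 normalised counts with YK-4-279 and 459.8 ± 53.9 with DMSO (SD, n = 3 each; log2 0.37 ± 0.12 SE; limma, adjusted p = 0.0565). The low HOXA entries carry the widest intervals, since their counts are small.

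The second comparison asked the same of lowered DHX9. Of the 30 HOX entries, 2 rose and 1 fell with siDHX9, and 16.7% of all tested entries were called, 8.75% higher and 7.97% lower. The called share of the HOX entries, 10%, was not above that background. HOXB13 rose 1.49-fold and HOXD9 rose 1.23-fold, and HOXB9, a gene of thoracic segments and ribs, fell 1.62-fold. All 3 belong to paralog groups 9 to 13, of which 14 entries were tested. The median log2 change was 0.05 over the HOX entries and −0.0024 over all tested entries, and the groups did not overlap for 4 of 30 entries, against 29.3% of all tested entries.

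HOXB13 had 4902, 4337 and 5544 normalised counts with siDHX9, against 3330, 3120 and 3463 with scrambled. Every siDHX9 library lay above every scrambled one; the siDHX9 libraries were also the more spread out. The log2 change was 0.57 ± 0.09 (SE; limma, adjusted p = 0.000914), and the call held with each library left out in turn. HOXD9 had 4879, 4617 and 4835 normalised counts with siDHX9, against 3973, 3899 and 3774 with scrambled (log2 0.30 ± 0.07 SE; limma, adjusted p = 0.0146). The groups were well apart, but the call was lost without siDHX9 replicate 1 (limma, adjusted p = 0.0519), with only the 6 libraries of the comparison (0.105) and without scrambled replicates 1 and 2 together (0.095).

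HOXB9 had 895.9, 749.2 and 846.2 normalised counts with siDHX9, against 1801, 1514 and 881.9 with scrambled. The groups overlapped, and scrambled replicates 1 and 2 were high while replicate 3 lay within the siDHX9 range. The log2 change of −0.69 ± 0.19 (SE; limma, adjusted p = 0.0262) was −0.09 without those 2 scrambled libraries (adjusted p = 0.775), −0.48 without scrambled replicate 1 alone (0.106) and −0.61 without scrambled replicate 2 alone (0.0868). The call was also lost without siDHX9 replicate 1 (limma, adjusted p = 0.0516) or 3 (0.0623). The count of called HOX entries was 1 without siDHX9 replicate 1, and 6 without siDHX9 replicate 2 or without scrambled replicate 3. In that order these fits called 698 higher and 603 lower, 2284 and 1971, and 1353 and 1285 of all tested entries. The main fit called 1244 and 1134.

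The 27 entries that were not called with siDHX9 had log2 changes between −0.48 (HOXB3) and 0.41 (HOXA13). HOXD13 had 9988, 9675 and 9099 normalised counts with siDHX9, against 9051, 8182 and 10501 with scrambled. These groups overlapped, and the log2 change was 0.06 ± 0.08 (SE; limma, adjusted p = 0.651), with a 95% interval from −0.12 to 0.24. HOXB7 averaged 2774 ± 285 normalised counts with siDHX9 and 2797 ± 311 with scrambled, and HOXD10 averaged 2963 ± 60.8 with siDHX9 and 3291 ± 66.3 with scrambled (SD, n = 3 each). HOXC9 had 467.9 ± 44.6 normalised counts with siDHX9 and 596.5 ± 45.4 with scrambled (SD, n = 3 each; log2 −0.35 ± 0.12 SE; limma, adjusted p = 0.0596). The HOXC9 libraries of the 2 groups did not overlap, with siDHX9 the lower.

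**Figure D3:**
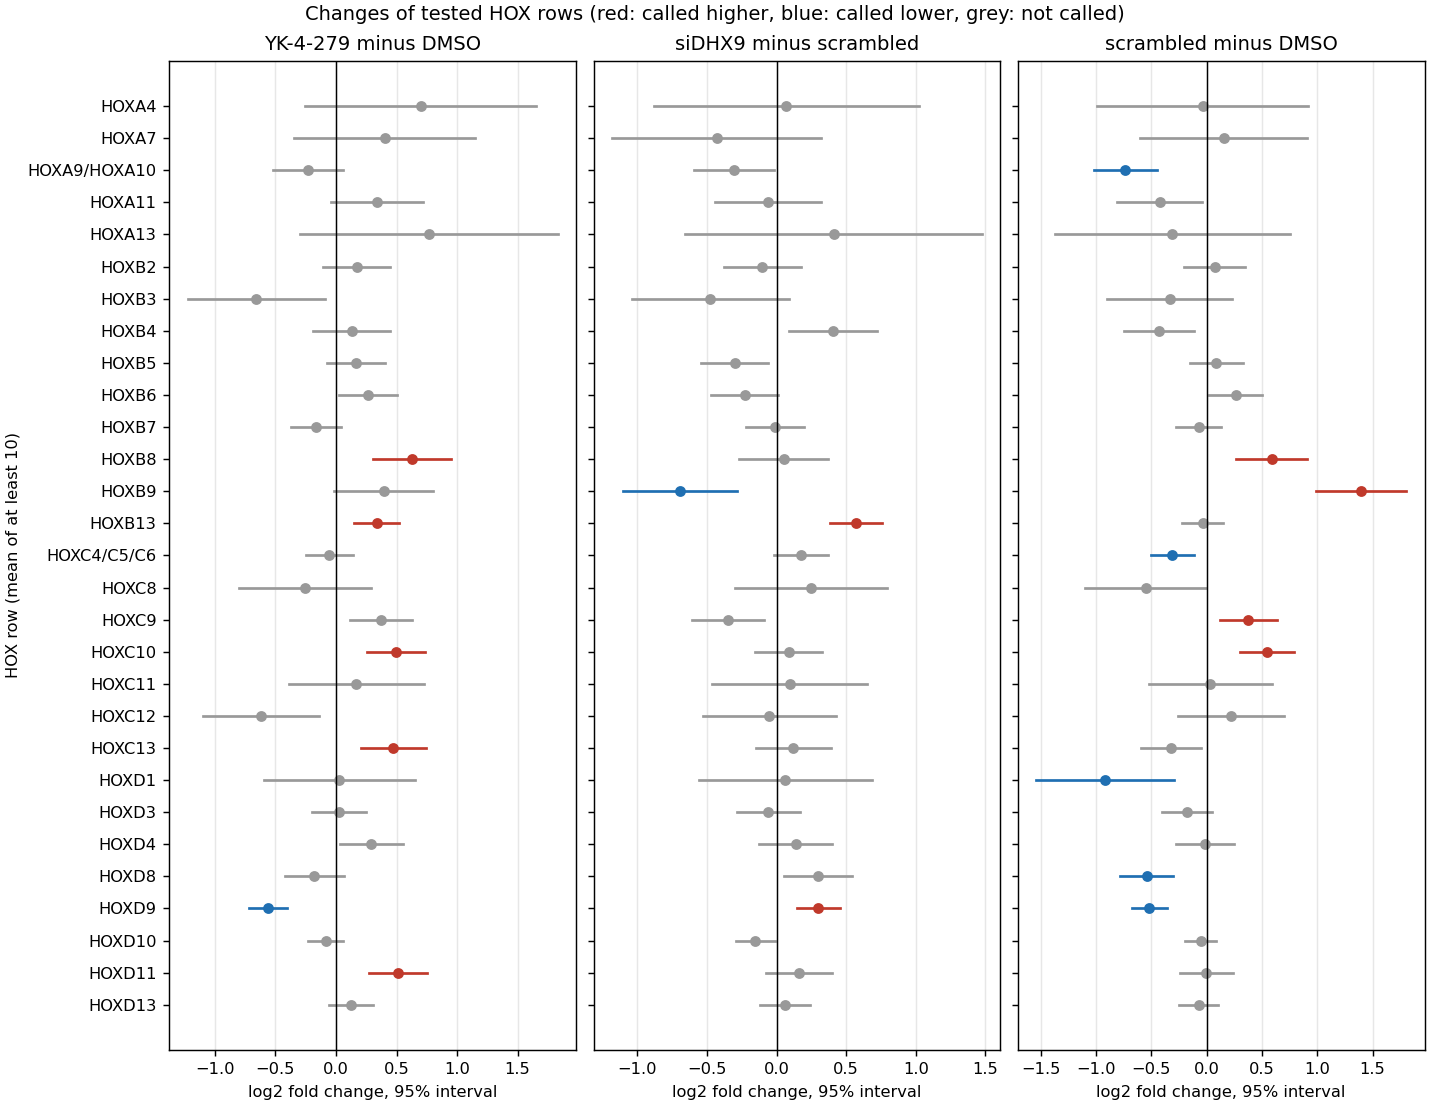
Log2 change of tested HOX entries (points) with its 95% interval (bars) in 3 panels, YK-4-279 against DMSO, siDHX9 against scrambled and scrambled against DMSO, coloured by call (limma, adjusted p under 0.05). HOXD9 is lower with YK-4-279 and higher with siDHX9, HOXB13 is higher with both, and HOXB9 is higher in scrambled than in DMSO libraries.

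Whether the drug and the knockdown acted differently was tested as the difference of the 2 effects. It was called for 3 of the 30 HOX entries, 2 positive and 1 negative, and for 9.69% of all tested entries, 4.4% positive and 5.29% negative. HOXD9 had an effect of −0.56 with YK-4-279 and 0.30 with siDHX9, a difference of −0.86 ± 0.10 (log2, SE; limma, adjusted p = 0.000268). HOXC9 had an effect of 0.37 with YK-4-279 and −0.35 with siDHX9, neither called by itself, and a difference of 0.72 ± 0.17 (log2, SE; limma, adjusted p = 0.0179). HOXB9 had an effect of 0.39 with YK-4-279 and −0.69 with siDHX9, and a difference of 1.09 ± 0.27 (log2, SE; limma, adjusted p = 0.0229). All 3 entries were also called in scrambled against DMSO, and their siDHX9 means lay between those of scrambled and DMSO. HOXD9 averaged 5557 normalised counts with DMSO, 3768 with YK-4-279, 3882 with scrambled and 4777 with siDHX9. In that order HOXB9 averaged 509.6, 669.1, 1399 and 830.5, and HOXC9 459.8, 593.1, 596.5 and 467.9. How far these differences rest on the shift between the controls was not tested. For HOXB13, higher in both comparisons, the difference was −0.23 ± 0.12 (log2, SE; limma, adjusted p = 0.24), with a 95% interval from −0.49 to 0.03. Without scrambled replicates 1 and 2 together, HOXB9 (0.48; limma, adjusted p = 0.151) and HOXC9 (0.68; adjusted p = 0.112) were no longer called. HOXB9 also lost the call without any one of scrambled replicates 1 and 2, YK-4-279 replicates 1 and 2 and DMSO replicates 1 and 3, with adjusted p values of 0.0506 to 0.0535. The count of HOX entries was 7 without scrambled replicate 3 and 6 without siDHX9 replicate 3. Over all tested entries these 2 fits called 875 positive and 1008 negative, and 917 and 863, against 626 and 753 in the main fit.

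The control groups were also set against each other. In scrambled against DMSO libraries, 4 of the 30 HOX entries were higher and 5 lower, and 18.9% of all tested entries were called, 9.7% higher and 9.22% lower. The libraries did not overlap for 11 of the 30 HOX entries, against 40.8% of all tested entries. Transfection, the time of 48 h against 16 h and DMSO itself cannot be told apart here, and this comparison shares its libraries with the other 2. HOXB9 was higher by a log2 change of 1.39 ± 0.19, at 1399 ± 470 normalised counts in scrambled and 509.6 ± 28.9 in DMSO libraries (SD, n = 3 each; limma, adjusted p = 0.000414). An unnamed, untested entry that overlaps HOXB9 had 91.07, 69.36 and 35.91 normalised counts in scrambled and 13.43, 23.83 and 16.69 in DMSO libraries. HOXB8 (log2 0.59 ± 0.15), HOXC10 (0.55 ± 0.11) and HOXC9 (0.38 ± 0.12) were also higher (SE; limma, adjusted p = 0.0152, 0.00507 and 0.0416). HOXB8 had 321.0, 305.2 and 244.4 normalised counts in scrambled libraries, HOXC10 had 865.6, 792.5 and 735.2, and HOXC9 had 563.5, 648.2 and 577.6, each above all DMSO libraries. HOXB8 and HOXC10 thus lay above DMSO in YK-4-279 and in scrambled libraries alike, and the same 3 DMSO libraries enter both comparisons.

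The 5 lower entries lay in 3 clusters, 3 of them in HOXD. The entry joining HOXA9 with HOXA10, genes of blood progenitors and of the uterus, had 628.5, 507.7 and 761.1 normalised counts in scrambled and 1022, 981.1 and 1120 in DMSO libraries (log2 −0.74 ± 0.13 SE; limma, adjusted p = 0.00248). HOXD9 had 3882 ± 101 normalised counts in scrambled and 5557 ± 328 in DMSO libraries (SD, n = 3 each; log2 −0.52 ± 0.07 SE; limma, adjusted p = 0.000472). HOXD8, a trunk gene next to HOXD9, had 1004, 832.3 and 1101 normalised counts in scrambled and 1492, 1287 and 1483 in DMSO libraries (log2 −0.54 ± 0.11 SE; limma, adjusted p = 0.00562). All scrambled libraries lay below all DMSO libraries for these 3 entries. HOXD1, with roles in pain-sensing neurons in mouse, had 27.95, 16.65 and 19.95 normalised counts in scrambled and 46.26, 37.74 and 38.52 in DMSO libraries (log2 −0.92 ± 0.29 SE; limma, adjusted p = 0.0405). It overlaps HAGLR, an antisense gene with a mean of 334.1 normalised counts, against 31.7 for HOXD1. The joined HOXC4, HOXC5 and HOXC6 entry had 1538, 1295 and 1596 normalised counts in scrambled and 1873, 1889 and 1714 in DMSO libraries (log2 −0.31 ± 0.09 SE; limma, adjusted p = 0.0302).

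Of these 9 calls, those of HOXB9, HOXD9, HOXD8, HOXC10 and the joined HOXA9 and HOXA10 entry held with each library left out in turn, though without scrambled replicates 1 and 2 together only those of HOXB9 and HOXD9 held. HOXB8 lost the call without DMSO replicate 2 (limma, adjusted p = 0.0765) or scrambled replicate 1 (0.0675) or 2 (0.0546). The joined HOXC4, HOXC5 and HOXC6 entry lost it without DMSO replicate 1 (limma, adjusted p = 0.0901) or 2 (0.109) or scrambled replicate 1 (0.0516) or 2 (0.119). HOXD1 lost it without any DMSO library, scrambled replicate 2 or 3 or YK-4-279 replicate 3 (limma, adjusted p = 0.0548 to 0.143), and HOXC9 without any DMSO library but replicate 3, any scrambled library, YK-4-279 replicate 1 or 3 or siDHX9 replicate 1 (0.0507 to 0.155). With the replicate number as a block, HOXC9 (limma, adjusted p = 0.0553) and HOXD1 (0.053) were not called. The count was 5 without DMSO replicate 2 or without scrambled replicate 2. Over all tested entries these fits called 721 higher and 710 lower, and 690 and 819, against 1380 and 1312 in the main fit. Across all 4 comparisons 12 HOX entries were called at least once and 18 never, against 38.3% of all tested entries called at least once. HOXD9 was the 1 HOX entry called in all 4, as were 0.675% of all tested entries; the comparisons share libraries.

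The HOX clusters also hold 25 other named entries, of which 14 were tested. PRAC1, a small gene beside HOXB13 known from prostate and colon, had a mean of 2963 normalised counts, and its neighbour PRAC2 had 742.8. HOTAIR, the antisense RNA of the HOXC cluster known to bind Polycomb complexes, had 251.6, HOXD-AS2 had 587.7, HAGLR, an antisense RNA between HOXD1 and HOXD3, had 334.1 and HOXC13-AS had 121.2 normalised counts. HOTTIP, the distal HOXA transcript, was near the floor at 1.48 normalised counts, and the entries of MIR10A, MIR196A1 and MIR196B were listed at 0.

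With YK-4-279, 0 of the 14 were called by limma and 0 by edgeR's quasi-likelihood test, 1 was called by DESeq2 and 1 had an unadjusted p under 0.05 in limma. Limma called 13.8% of all tested entries there. With siDHX9, 2 of the 14 fell, against 7.97% of all tested entries. HAGLR had 226.6, 200.3 and 164.3 normalised counts with siDHX9, against 329.1, 292.2 and 319.2 with scrambled (log2 −0.68 ± 0.13 SE; limma, adjusted p = 0.00525). The groups were apart, the call held with each library left out, and HAGLR had 421.4 ± 33.5 normalised counts with YK-4-279 and 404.6 ± 37.5 with DMSO (SD, n = 3 each). HOXC-AS3 had 11.38, 13.72 and 14.05 normalised counts with siDHX9, against 38.77, 33.29 and 27.93 with scrambled (log2 −1.28 ± 0.32 SE; limma, adjusted p = 0.0172). It is a low entry that shares its span with HOXC10, and its call was held in 10 of 12 fits with 1 library left out (limma, adjusted p up to 0.0658). With only the 6 libraries of the comparison, HAGLR (limma, adjusted p = 0.0566) and HOXC-AS3 (0.0655) were not called. HOTAIR had 274.9 ± 30.8 normalised counts with siDHX9 and 282.1 ± 62.3 with scrambled, and 197.6 ± 26.1 with YK-4-279 and 251.8 ± 50 with DMSO (SD, n = 3 each; limma, adjusted p = 0.952 and 0.245). In scrambled against DMSO libraries, HOXC13-AS (log2 −1.39 ± 0.26 SE; limma, adjusted p = 0.00299) and HOXD-AS2 (log2 −0.66 ± 0.19 SE; limma, adjusted p = 0.0263) were lower.

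**Figure D4:**
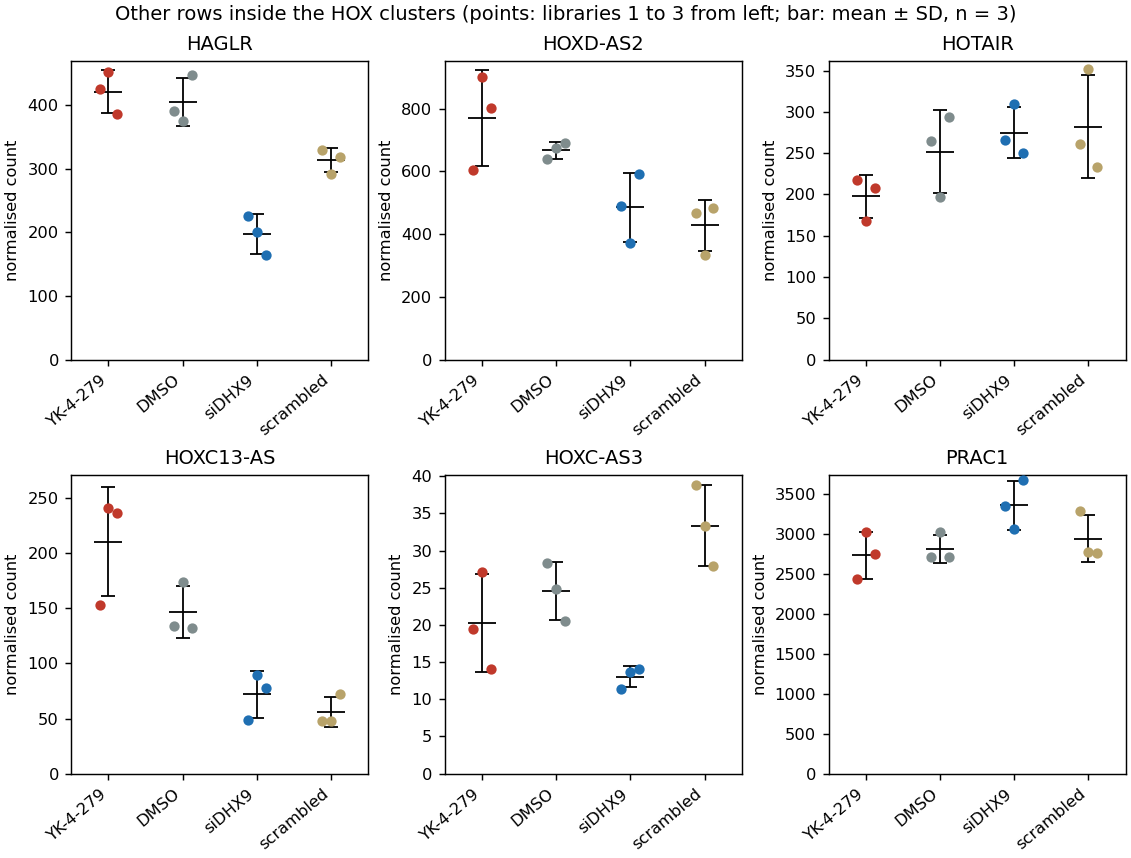
Normalised counts of 6 other entries inside the HOX clusters in each of the 12 libraries (points, libraries 1 to 3 from left), with group means and SDs (bars, n = 3). HAGLR and HOXC-AS3 are lower with siDHX9 than with scrambled, HOXC13-AS and HOXD-AS2 are lower in scrambled than in DMSO libraries, and HOTAIR and PRAC1 overlap in both treatments.

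The partners and regulators of HOX genes were counted next. Over all tested entries, 13.8% were called with YK-4-279 and 16.7% with siDHX9. All 11 TALE cofactors, the PBX, MEIS, PKNOX and TGIF genes, were tested; with YK-4-279 1 fell, with siDHX9 0 were called. TGIF1, a repressor of the family, had 1044 ± 68.8 normalised counts with YK-4-279 and 1315 ± 60.8 with DMSO (SD, n = 3 each; log2 −0.33 ± 0.09 SE; limma, adjusted p = 0.0321). Its call was held in 7 of 12 fits with 1 library left out. It was lost without any single DMSO library or YK-4-279 replicate 2 or 3 (limma, adjusted p = 0.0607 to 0.121). With siDHX9, 6 of the 11 had an unadjusted p under 0.05 in limma, and edgeR's quasi-likelihood test and DESeq2 called 0. The share of all tested entries under that unadjusted threshold was not counted, so the 6 cannot be set against it. MEIS1, a cofactor of this list, had a mean of 339.0 normalised counts.

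Of 28 Polycomb genes 1 rose and 3 fell with YK-4-279, and 4 rose and 5 fell with siDHX9. The shares called over all tested entries were 13.8% and 16.7%. EED, the subunit that reads trimethylated histone H3 lysine 27, had 1688, 1668 and 1681 normalised counts with YK-4-279, against 2946, 2546 and 2798 with DMSO (log2 −0.72 ± 0.09 SE; limma, adjusted p = 0.000173). EZH2, the methyltransferase of the same complex, had a log2 change of −0.36 ± 0.06 (SE; limma, adjusted p = 0.00203) and RBBP7, its histone chaperone, one of −0.20 ± 0.06 (adjusted p = 0.0373), while PHC2, of the other Polycomb complex, rose by 0.49 ± 0.11 (adjusted p = 0.0131). EED and EZH2 remained called with each library left out, PHC2 in 9 of 12 such fits and RBBP7 in 6. RBBP7 lost its call without any single YK-4-279 or DMSO library (limma, adjusted p = 0.0794 to 0.161). With the replicate number as a block RBBP7 was not called either (limma, adjusted p = 0.0677). With siDHX9, the chromodomain gene CBX8 rose by a log2 change of 0.74 ± 0.09 (SE; limma, adjusted p = 0.000204), and PCGF1, CBX2 and RING1 rose by 0.40, 0.36 and 0.31. AEBP2, a cofactor of EZH2, fell by 0.84 ± 0.13 on the log2 scale (SE; limma, adjusted p = 0.000844), and SUZ12, PCGF6 and EED fell by 0.56, 0.50 and 0.30. CBX8 and AEBP2 held with each library left out, and the other genes named here in 3 (SUZ12) to 11 (RING1) of 12 such fits. With only the 6 libraries of the comparison, PCGF1, CBX2, RING1, SUZ12, PCGF6 and EED were not called (limma, adjusted p = 0.0933 to 0.147). The list thus moved in both directions, with median log2 changes of −0.03 with YK-4-279 and −0.10 with siDHX9, against 0.02 and −0.0024 over all tested entries.

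Of 17 Trithorax, MLL and histone demethylase genes 1 rose with YK-4-279, and 2 rose and 2 fell with siDHX9. Among all tested entries 13.8% and 16.7% were called. MEN1, the menin scaffold of MLL complexes, had 5358 ± 316 normalised counts with YK-4-279 and 3975 ± 292 with DMSO (SD, n = 3 each; log2 0.43 ± 0.11 SE; limma, adjusted p = 0.0237), called in 7 of 12 fits with 1 library left out. The MEN1 call was lost without any single YK-4-279 library or DMSO replicate 1 or 2 (limma, adjusted p = 0.0523 to 0.103). With siDHX9, KMT2A, the MLL methyltransferase, fell by 0.90 ± 0.24 and RBBP5, its core partner, by 0.78 ± 0.23 on the log2 scale (SE; limma, adjusted p = 0.023 and 0.033), each called in 8 of 12 such fits. Both calls were lost without scrambled replicate 1 or 2 or siDHX9 replicate 1 or 3 (limma, adjusted p = 0.0522 to 0.124). KMT2A had 161.4, 271.7 and 169.7 normalised counts with siDHX9, against 339.0, 550.2 and 262.4 with scrambled, which overlap. WDR5 rose by 0.36 ± 0.09 and DPY30, in an entry joined with MEMO1, by 0.33 ± 0.09 (log2, SE; limma, adjusted p = 0.0131 and 0.0243), in 11 and 9 of the 12 fits. With only the 6 libraries of the comparison, none of KMT2A, RBBP5, WDR5 and DPY30 was called (limma, adjusted p = 0.055 to 0.135). WDR5 was also called lower in scrambled than in DMSO libraries.

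Of 17 regulators known to act upstream of HOX genes, 8 were tested, and 3 rose with YK-4-279 and 1 with siDHX9. Higher calls made up 7.33% and 8.75% of all tested entries. RARA, a retinoic acid receptor, had 1041, 1039 and 928.8 normalised counts with YK-4-279, against 626.7, 641.5 and 567.5 with DMSO (log2 0.71 ± 0.12 SE; limma, adjusted p = 0.00215), a call that held with each library left out. GDF11, a secreted factor that sets the trunk-to-tail transition in mouse, had log2 changes of 0.52 ± 0.12 with YK-4-279 and 0.43 ± 0.12 with siDHX9 (SE; limma, adjusted p = 0.0139 and 0.031), in 10 and 8 of 12 such fits. RARG was higher with YK-4-279 by 0.32 ± 0.10 (log2, SE; limma, adjusted p = 0.0479), in 4 of 12, and was not called with the replicate number as a block (adjusted p = 0.0585). Of the CDX genes, CDX2 had a mean of 99.4 normalised counts, CDX1 was under 1 and CDX4 was at 0. WNT3A was at 0 as well.

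Of 13 other homeobox genes, 7 were tested, and 1 rose with YK-4-279, while 2 rose and 1 fell with siDHX9. Calls over all tested entries amounted to 13.8% and 16.7%. DLX2, of forebrain and jaw patterning, had 555.6, 808.4 and 661.9 normalised counts with YK-4-279, against 337.2, 401.2 and 395.5 with DMSO (log2 0.82 ± 0.17 SE; limma, adjusted p = 0.0079). With siDHX9, MEOX1, a somite gene, rose by 1.02 ± 0.20 and DLX1 fell by 0.60 ± 0.11 on the log2 scale (SE; limma, adjusted p = 0.00495 and 0.00297). The calls of these 3 genes held with each library left out, whereas DLX5 (log2 0.43 ± 0.12 SE with siDHX9; limma, adjusted p = 0.0297) was called in 8 of 12 such fits. DLX5 lost the call without scrambled replicate 1 or 2 or siDHX9 replicate 1 or 3 (limma, adjusted p = 0.0872 to 0.113).

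The entries that flank the clusters, 3 on each side with a mean of at least 10, numbered 24, and 2 of them fell with YK-4-279. With siDHX9, 2 rose and 3 fell. Of all tested entries 13.8% were called with YK-4-279 and 16.7% with siDHX9. CBX5, a heterochromatin protein gene beside HOXC, had 16269, 17496 and 17802 normalised counts with YK-4-279, against 28033, 28536 and 29348 with DMSO (log2 −0.74 ± 0.08 SE; limma, adjusted p = 5.12e-05). LNPK, an endoplasmic reticulum gene beside HOXD, had a log2 change of −0.41 ± 0.11 (SE; limma, adjusted p = 0.0268), called in 7 of 12 fits with 1 library left out. The LNPK call was lost without any single DMSO library or YK-4-279 replicate 2 or 3 (limma, adjusted p = 0.0622 to 0.115). With siDHX9, LINC01116, a noncoding RNA beside HOXD, rose by 0.60 ± 0.11 (log2, SE; limma, adjusted p = 0.00294) with each library left out, TTLL6 rose by 0.87, and ATF7, CALCOCO1 and NFE2L1 fell by 0.51, 0.51 and 0.34 on the log2 scale, in 1 (NFE2L1) to 10 (ATF7) of 12 such fits. With the replicate number as a block, TTLL6 (limma, adjusted p = 0.0516) and NFE2L1 (0.0645) were not called. With only the 6 libraries of the comparison, TTLL6, ATF7, CALCOCO1 and NFE2L1 were not called (limma, adjusted p = 0.0501 to 0.18).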

How the data were processed

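RNA of 12 TC-71 cultures was sequenced, 3 per group. The deposited values are normalised gene-level signal (read counts divided by a size factor), with FASTDB annotation 2018_1 per the file headers; STAR 2.4.0, SAMtools, Picard, FastQC, DESeq and hg19 are named per the submitters' processing notes. No strand setting is stated in those sources. The steps between low values gave whole reads, within 0.1, for 100% of values, so counts could be recovered; edgeR on them called 939 entries higher and 1059 lower with YK-4-279, and 1267 and 1248 with siDHX9. Entries with no gene name, which took 3.91% to 4.9% of reads, were not tested.

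Named entries with a mean of at least 10 (14225 of 25787) were tested on log2(value + 1), which understates the change of low genes, with limma 3.58.1 (R 4.3.3; 1 fit over 4 groups, mean-variance trend, 8 residual degrees of freedom). P-values were Benjamini-Hochberg adjusted over all 14225, with 0.05 as the threshold. Alternatives used edgeR 4.0.16 and DESeq2 1.42.0, other pseudocounts, filters, scalings and left-out libraries. A left-out library outside the compared groups changes the shared estimate of spread and not the log2 change. The test was checked on simulated data with a typical spread. For YK-4-279 and siDHX9 it recovered 6% and 8% of 1.25-fold changes, 54% and 44% of 1.5-fold changes, and 100% of 2-fold changes. Low entries such as HOXA4, HOXA7, HOXA13 and HOXB3 were not among those changed in the simulation. Their 95% intervals with YK-4-279 reached past 2-fold, as in HOXA13 with −0.30 to 1.83 on the log2 scale. Entries that were not called may thus have changed by less than 2-fold, and those with wide intervals by more. Levels per kilobase used exon lengths of GENCODE genes matched by name. For HOXA13, HOXB4, HOXC12 and HOXD12 this length exceeds the span of the deposited entry, so their levels per kilobase may be too low. Promoters came from RefSeq (GRCh38.p14); row coordinates are hg19. The 95% intervals of changes come from the spread between libraries in the limma fit, and the upper limit beside 0 reads covers counting error only. Full values are given for each HOX entry called in any comparison and the 8 of highest mean, and for up to 4 called members each way of every gene list; levels of other list members were picked after their values were seen. The HOX members and the lists were chosen with earlier results of these data known. Same-numbered libraries of the compared groups had correlations of −0.0187 to 0.1172 in their deviations from the group means, and different-numbered ones −0.143 to 0.0787. For siDHX9 and scrambled the same-numbered values, 0.0474 to 0.0782, all lay above the different-numbered ones, −0.0942 to 0.0407. The numbers were not taken as pairs in the main fit, and a fit with them as a block is given beside it. There were 0 sample columns left unused. Values of a few genes are not reported here, in the text or in the plots, and the counts include them.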

Additional observations from a re-analysis of the deposited data

Results flagged for a closer look

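The effects of YK-4-279 and of siDHX9 differed by a direct test for 3 HOX genes, each given as the YK-4-279 effect minus the siDHX9 effect on the log2 scale. These are 10% of the 30 tested HOX entries, near the 9.69% called among all tested entries. HOXB9 differed by 1.09, HOXC9 by 0.72 and HOXD9 by −0.86 (limma, adjusted p = 0.0229, 0.0179 and 0.000268). All 3 were also called in scrambled against DMSO, with siDHX9 means between those of scrambled and DMSO. The scrambled libraries enter the second effect, and the HOXB9 and HOXC9 calls were not made without scrambled replicates 1 and 2 together, whereas that of HOXD9 was.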

How the results depend on the processing

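No HOX change turned its direction with a call under any alternative run. The counts of called HOX entries were 6 for YK-4-279, 3 for siDHX9, 3 for the difference of the effects and 9 for scrambled against DMSO. With only the 6 libraries of the comparison they were 12 for YK-4-279, 1 for siDHX9 and 6 for scrambled against DMSO. The calls over all 14225 tested entries moved as well. For YK-4-279 they went from 1042 higher and 923 lower in the main fit to 2325 and 1945. For siDHX9 they went from 1244 and 1134 to 294 and 198, and for scrambled against DMSO from 1380 and 1312 to 1375 and 1371. With DESeq2 the counts of HOX entries were 5 for siDHX9 and 6 for the difference. Over all tested entries DESeq2 called 1558 higher and 1637 lower for siDHX9, and 971 and 1126 for the difference. At an absolute log2 change of at least 1 the counts of HOX entries were 0, 0, 1 and 1 in the order of the main counts. Under array weights, an alternative chosen after seeing the data, the counts were 12, 7 and 11 for the first 3. Over all tested entries array weights called 2530 higher and 2134 lower for YK-4-279, 2188 and 2079 for siDHX9, and 1754 and 1723 for the difference. Leaving out scrambled replicates 1 and 2 together was also chosen after seeing the data. That fit holds 1 scrambled library, and its counts are not given. Leaving out 1 library at a time gave 1 to 7 for YK-4-279, 1 to 6 for siDHX9, 2 to 7 for the difference and 5 to 10 for scrambled against DMSO. The calls over all tested entries also ranged widely in these fits. With YK-4-279 they ran from 376 higher and 482 lower without YK-4-279 replicate 2 to 1593 and 1202 without siDHX9 replicate 2. With siDHX9 they ran from 657 and 587 without siDHX9 replicate 3 to 2284 and 1971 without siDHX9 replicate 2. The cause of the other shifts was not tested. With the replicate number as a block the counts were 6, 3, 3 and 7. The block ended the calls of HOXC9 and HOXD1 in scrambled against DMSO and of no other HOX entry. Among list genes it ended those of RARG and RBBP7 with YK-4-279 and of TTLL6 and NFE2L1 with siDHX9. Same-numbered libraries correlated more than all different-numbered ones for siDHX9 and scrambled, and not for the other pairs of groups. Counting depth limits the low HOXA entries, HOXB3 and HOXD1 most, and HOXA2, HOXA6, HOXB1, HOXD12 and the joined HOXA3 and HOXA5 entry were below the level tested.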
